A study of Mus musculus with 416 samples.

Results

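Prkcd, Tcf7l2, Slc17a6, Lef1, Gbx2, Rgs16, Synpo2 and Hcn4 are 8 genes known to be strong in relay neurons of the mouse thalamus, and they were followed here through 416 libraries of striatum. They were found by Ensembl gene ID (ENSMUSG00000021948 for Prkcd on chromosome 14, ENSMUSG00000024985 for Tcf7l2 on chromosome 19, ENSMUSG00000030500 for Slc17a6 on chromosome 7, ENSMUSG00000027985 for Lef1 and ENSMUSG00000050315 for Synpo2 on chromosome 3, ENSMUSG00000034486 for Gbx2 and ENSMUSG00000026475 for Rgs16 on chromosome 1, and ENSMUSG00000032338 for Hcn4 on chromosome 9), as 8 of the 46517 genes in the deposited table, and were chosen by their measured levels, because a few libraries held them high together. Their levels, the number of libraries that hold them high and their co-variation therefore describe that choice and carry no test. All 8 passed the filter on low counts that left 22968 genes for testing.

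All animals were outbred Diversity Outbred mice (labelled J:DO), a stock bred so that every animal has a genotype of its own. None had received a drug, and the labels give no age. Each library is labelled with a sex and a breeding generation: 76 female and 74 male libraries in generation 21, 60 female and 59 male in generation 22, and 72 female and 75 male in generation 23. Each library has its own animal number, so the spread between libraries is the spread between animals together with dissection and library preparation. Libraries held between 20331813 and 77458299 counts (median 43516366). Of the 416, 4 libraries, all of generation 21, stand apart in most of the 8 genes. Their summed levels of striatal neuron genes run from 0.0266 times the median in female replicate 34 to 0.781 times in female replicate 29. These libraries are described with their values, and each comparison of the 8 genes is given with and without them. Levels are given as CPM, counts scaled to the library total with TMM factors, and a library was called high for a gene when it exceeded 4 times the median of that gene over all 416 libraries.

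The thalamus relays sensory, motor and limbic signals to the cortex and also projects to the striatum. Its relay neurons release glutamate, which they load into vesicles with the transporter VGLUT2, and they fire in tonic or burst mode depending on hyperpolarisation-activated and T-type calcium currents. The striatum itself consists mainly of GABAergic spiny projection neurons and has no glutamatergic relay cells of its own, although axons from the thalamus end in it. In the 8 genes, Tcf7l2, Lef1 and Gbx2 are transcription factors: Tcf7l2 and Lef1 are DNA-binding partners of beta-catenin in Wnt signalling, and Gbx2 is a homeobox factor needed for thalamic development. Slc17a6 encodes VGLUT2. Hcn4 encodes a slow hyperpolarisation-activated channel. Prkcd encodes protein kinase C delta, Rgs16 a protein that speeds the shut-off of G-protein signals, and Synpo2 (synaptopodin 2) an actin-binding protein.

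Because TCF and LEF factors bind sites with the core letters CTTTGA, the 250 bases before each annotated start of the 8 genes were searched for CTTTGA and its reverse form TCAAAG. The windows are those of RefSeq on mouse build GRCm38.p6, in which all 8 genes were found with 14 starts. The windows of the first start are shown for the 3 genes with the highest correlation with the mean of all 8, themselves included, 5′ to 3′ in the direction of transcription and with capitals for a match. They lie at chr14:30626209-30626458 on the minus strand (Prkcd), chr19:55741560-55741809 on the plus strand (Tcf7l2) and chr7:51621580-51621829 on the plus strand (Slc17a6).
Prkcd: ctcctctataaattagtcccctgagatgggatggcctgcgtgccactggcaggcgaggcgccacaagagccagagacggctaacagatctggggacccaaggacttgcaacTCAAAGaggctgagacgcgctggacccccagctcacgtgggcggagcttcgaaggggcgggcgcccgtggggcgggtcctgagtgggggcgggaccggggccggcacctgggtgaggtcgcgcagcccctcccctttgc
Tcf7l2: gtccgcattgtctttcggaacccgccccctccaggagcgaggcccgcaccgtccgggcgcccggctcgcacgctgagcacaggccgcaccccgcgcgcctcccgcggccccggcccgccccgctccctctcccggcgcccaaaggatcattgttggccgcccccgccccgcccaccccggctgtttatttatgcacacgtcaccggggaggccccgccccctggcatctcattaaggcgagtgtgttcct
Slc17a6: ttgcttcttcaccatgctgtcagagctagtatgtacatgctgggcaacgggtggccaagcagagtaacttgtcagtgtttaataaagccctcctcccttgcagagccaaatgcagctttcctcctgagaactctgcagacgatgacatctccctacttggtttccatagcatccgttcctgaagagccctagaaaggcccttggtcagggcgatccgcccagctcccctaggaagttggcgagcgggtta
The Prkcd window held 1 match, in the reverse form. No match stood in the Tcf7l2 window, which was 72.8% G and C, or in the Slc17a6 window. Among the 14 starts, 2 held a match, the first of Prkcd and the fourth of Lef1 (2 matches, 180 and 120 bases before it). The same letters stood in 13.83% of all 32850 windows of this length, and a match describes the letters only, not a bound site.

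In most libraries the 8 genes were weak. Per kilobase of annotated exon, median levels ran in the order Synpo2 (2.14 CPM per kilobase), Rgs16 (1.74), Tcf7l2 (1.198), Lef1 (1.17), Prkcd (0.932), Hcn4 (0.356), Slc17a6 (0.193) and Gbx2 (0.131). Ranges from the lower to the upper quartile overlapped between Synpo2 and Rgs16, among Tcf7l2, Lef1 and Prkcd, and between Slc17a6 and each of Hcn4 and Gbx2. They did not overlap between Hcn4 and Gbx2 (0.0886 to 0.173), between Rgs16 (1.35 to 2.19) and Tcf7l2 (1.09 to 1.33) or between Prkcd (0.794 to 1.13) and Hcn4 (0.299 to 0.42). Within a gene the spread was narrow for Tcf7l2 and Lef1, whose upper quartile was 1.22 times the lower one for each. It was wide for Slc17a6, at 6.11 times.

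Prkcd ranged from 2.74 CPM in the lowest library to 1352 CPM in the highest, with a median of 5.17 CPM. Tcf7l2 ranged from 6.92 to 317.7 CPM around a median of 10.5 CPM. Slc17a6 ranged from 0 to 290.8 CPM around a median of 1.04 CPM, and 1 library had no read of it. In each of these genes a handful of libraries stood far above the rest. The 4 libraries with the highest sums over the 8 genes contributed 52.2% of all Prkcd CPM in the series and 44.3% of all Slc17a6 CPM, against 6.31% to 15.3% for the other 6 genes. Lef1 ranged from 6.79 to 110.98 CPM (median 10.3), Rgs16 from 1.23 to 134.7 CPM (median 4.07) and Synpo2 from 10.7 to 405.7 CPM (median 28.03). Hcn4 ranged from 0.829 to 59.1 CPM around a median of 2.18 CPM. Gbx2 was close to the limit of detection: its median of 0.284 CPM rested on 12 counts, and 2 libraries had no read of it.

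**Figure D1:**
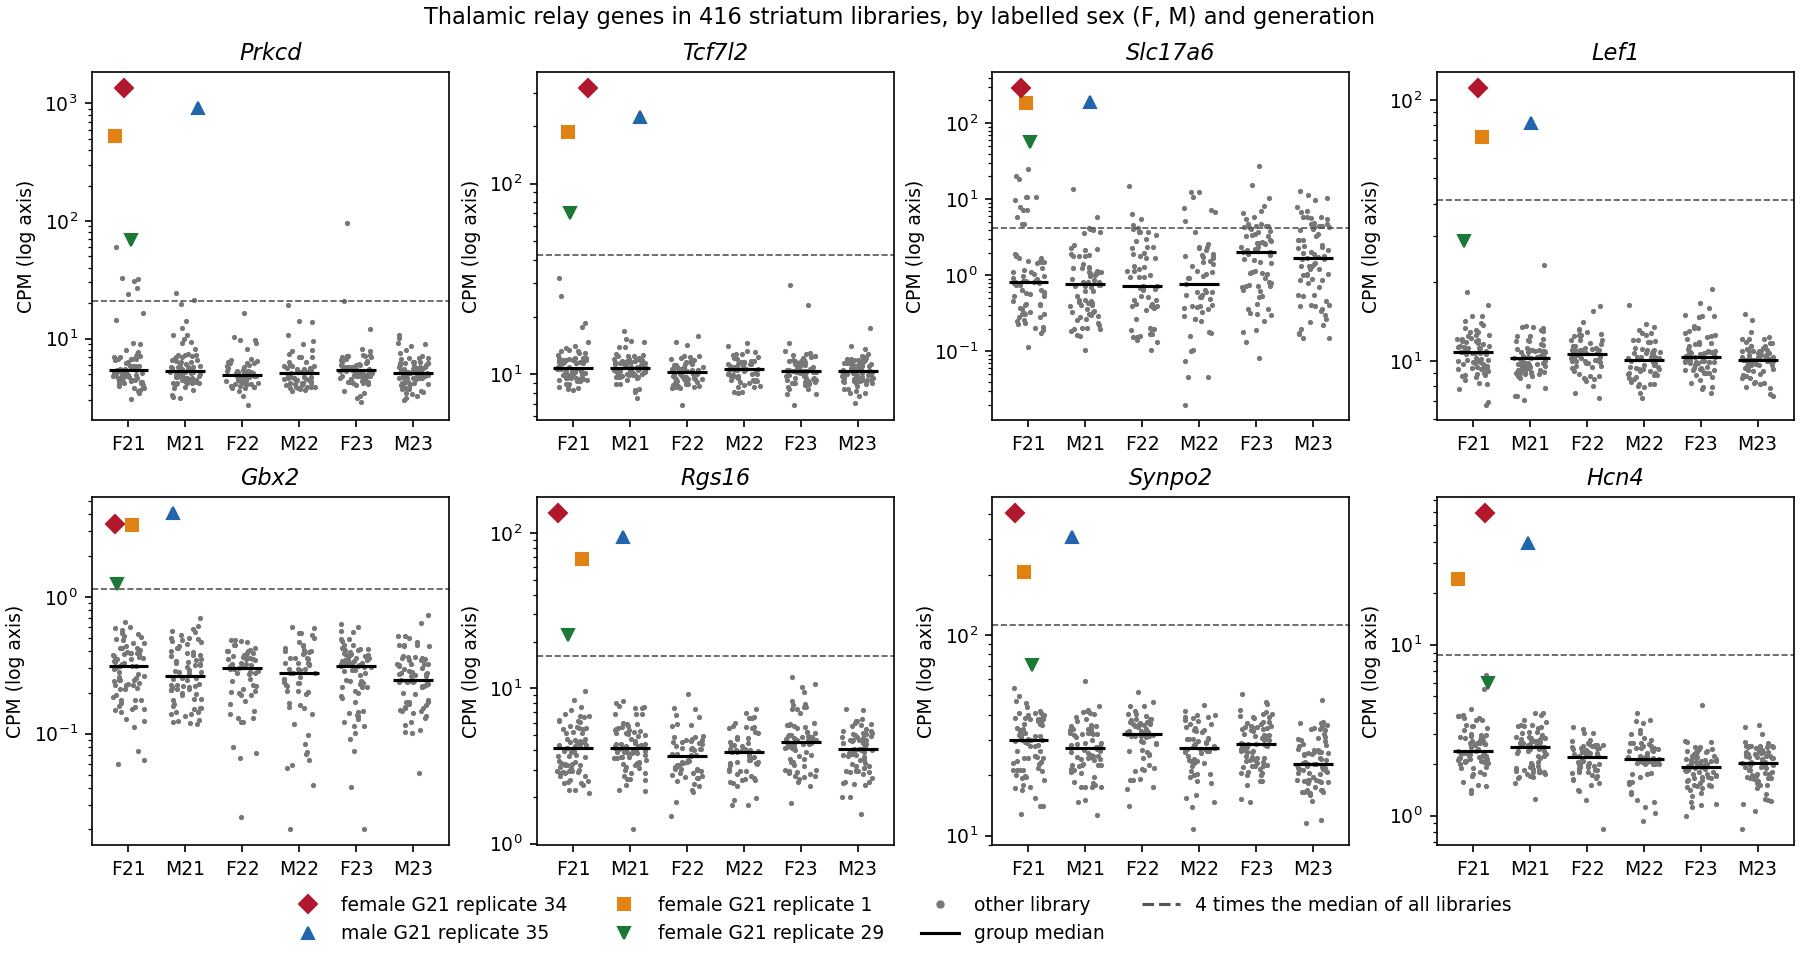
Level of each of the 8 genes in CPM (log axis) in every library, by labelled sex (F, M) and generation (21, 22, 23); values under 0.02 are drawn at 0.02, black bars are group medians and dashed lines 4 times the median over 416 libraries. The 4 coloured libraries, all of generation 21, stand above the others in Tcf7l2, Slc17a6, Lef1, Gbx2, Rgs16 and Synpo2.

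Of the 416 libraries, 83.4% held none of the 8 genes high, 57 held 1, 8 held 2, 1 held 5 and 3 held all 8. The libraries with 1 gene were Slc17a6 alone in 55 cases and Prkcd alone in 2. The 8 libraries with 2 genes held Prkcd and Slc17a6 in every case. Slc17a6 was high in 67 libraries and Prkcd in 14, whereas Tcf7l2, Gbx2 and Rgs16 were high in 4 each and Lef1, Synpo2 and Hcn4 in 3 each. For 5 of the genes the limit fell in a gap: the last library above it had 24.3 CPM of Hcn4 and the next one below 6.62 CPM, with 206.02 and 70.5 CPM for Synpo2, 72.1 and 28.8 CPM for Lef1, 70.5 and 32.1 CPM for Tcf7l2, and 22.04 and 11.9 CPM for Rgs16. For Slc17a6 there was no gap, with 4.21 CPM just above and 4.14 CPM just below, and Prkcd was likewise continuous there at 20.7 and 19.6 CPM. Gbx2 had 1.24 CPM just above and 0.733 CPM just below.

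The 3 libraries with all 8 genes high were female replicate 34, male replicate 35 and female replicate 1, all of generation 21. Prkcd stood at 1352, 916.6 and 533.7 CPM in these libraries, and Tcf7l2 at 317.7, 224.98 and 187.5 CPM. Slc17a6 stood at 290.8, 191.2 and 183.2 CPM. No other library exceeded 95.8, 70.5 or 56.6 CPM of these genes. Lef1 reached 110.98, 81.3 and 72.1 CPM, Rgs16 134.7, 94.7 and 67.9 CPM, Synpo2 405.7, 306.7 and 206.02 CPM, and Hcn4 59.1, 39.3 and 24.3 CPM, in the same order of libraries. Gbx2 alone was highest in male replicate 35, at 4.1 CPM, with 3.38 CPM in female replicate 34 and 3.32 CPM in female replicate 1. The 3 libraries held 51004956, 44528801 and 54263400 counts. None of them was among the 29 libraries in the series whose Xist level goes against the labelled sex.

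The 8 genes kept similar proportions from the highest library to the second and less similar ones to the third. Taking each gene's level above its median, male replicate 35 had 0.651 to 0.738 times the excess of female replicate 34 for 7 genes, and 1.23 times for Gbx2. Female replicate 1 had 0.389 times for Hcn4 and 0.392 times for Prkcd, against 0.614 times for Lef1, 0.629 times for Slc17a6 and 0.983 times for Gbx2. Female replicate 29 of generation 21, the library with 5 genes high, had only 0.0469 times for Prkcd but 0.195 times for Tcf7l2 and 0.309 times for Gbx2. Its levels were 68.4 CPM of Prkcd, 70.5 CPM of Tcf7l2, 56.6 CPM of Slc17a6, 22.04 CPM of Rgs16 and 1.24 CPM of Gbx2. Lef1 (28.8 CPM), Synpo2 (70.5 CPM) and Hcn4 (5.95 CPM) stayed under 3 times their medians there. In the whole transcriptome of these 4 libraries, 3.29%, 2.37%, 2.45% and 1.42% of 22853 tested genes with a median above 0 were above 4 times their median, in the order female replicate 34, male replicate 35, female replicate 1 and female replicate 29. In the first 3 of them together, 320 genes (1.4%) were that high in each.

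**Figure D2:**
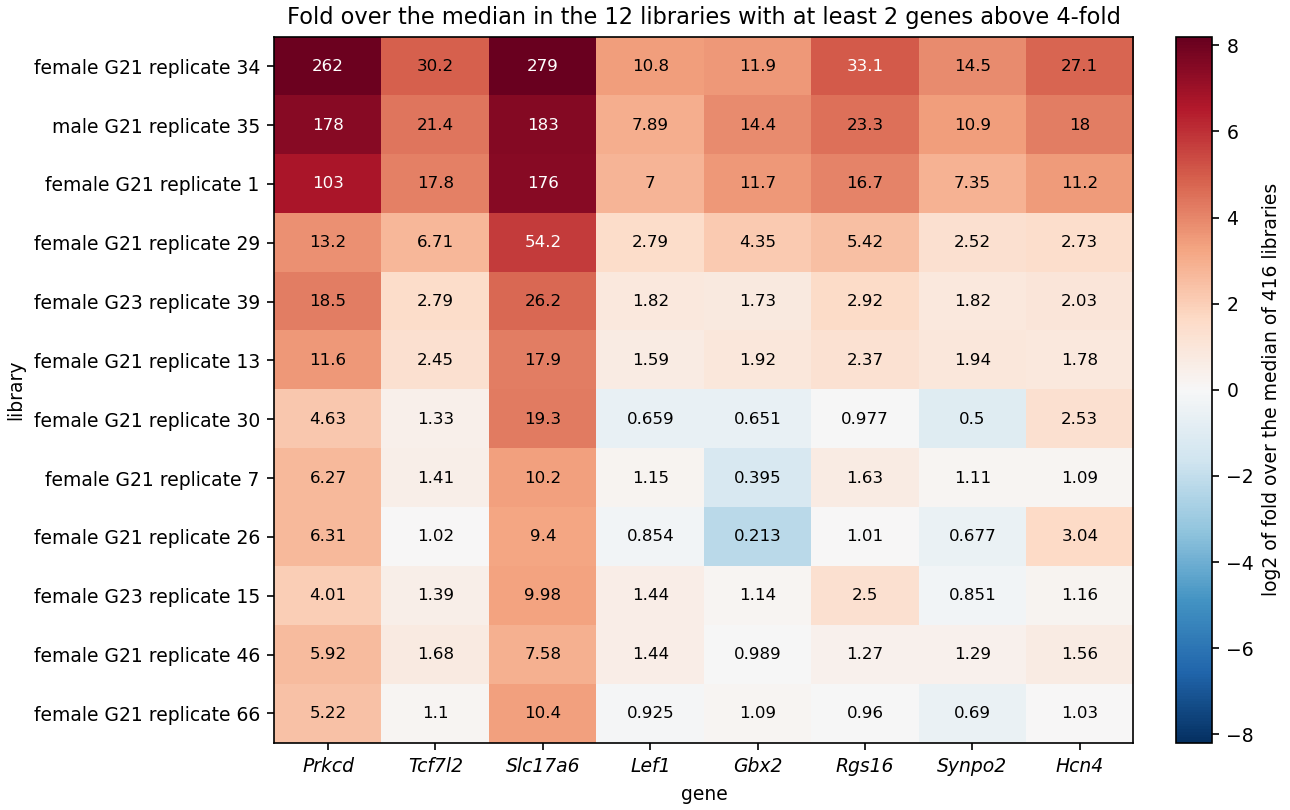
Level of each of the 8 genes as a multiple of its median over 416 libraries, in the 12 libraries with at least 2 genes above 4-fold; colour is the log2 of the multiple and the printed number the multiple itself. Prkcd and Slc17a6 are above 4-fold in all 12 rows, and the other genes follow only in the upper 3 or 4.

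Spiny projection neuron genes, which define striatal tissue, were below their medians in these libraries, to different degrees. All 12 listed genes were at 0.00255 to 0.06 times their median in female replicate 34, 0.355 to 0.599 times in male replicate 35, 0.135 to 0.24 times in female replicate 1 and 0.692 to 0.899 times in female replicate 29. Their summed level was 202.9, 3467, 1338 and 5958 CPM in these 4 libraries, against a median of 7629 CPM over all libraries. Drd1, the D1 dopamine receptor, stood at 1.52, 134.8, 61.1 and 278.6 CPM, against a median of 309.7 CPM. Female replicate 34 was the lowest of all 416 libraries for each of the 12 genes, which goes against its label of striatum. The order of the 4 libraries by spiny neuron genes was not the reverse of their order by relay genes, since female replicate 1 had less of both than male replicate 35. All 4 were among the 29 libraries with a low total or a low correlation with the rest: their median correlation with other libraries was 0.909, 0.946, 0.945 and 0.962, against a typical 0.969. In bulk tissue, fewer cells of a type and less RNA per cell cannot be told apart.

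A second list of 12 genes known from the thalamus was read in the same libraries. It had 11 members above 4 times the median in each of female replicate 34, male replicate 35 and female replicate 1, and 5 in female replicate 29. Over all tested genes, 3.29%, 2.37%, 2.45% and 1.42% were that high in these libraries. The list was chosen with earlier results of these data known, so its count describes that choice and carries no test. Its summed level was 5881, 3869, 3241 and 891.8 CPM in these libraries, the 4 highest of all, against a median of 432.1 CPM. The homeobox gene Shox2 stood at 138.6, 105.6, 90.5 and 27.2 CPM, against a median of 0.13 CPM. Cacna1g, which encodes the T-type calcium channel behind burst firing, stood at 395.2, 276.8, 192.2 and 45.9 CPM, against 11.4 CPM. Ntng1, an axonal adhesion protein known from thalamocortical fibres, stood at 425, 305.2, 279.7 and 64.3 CPM, against 13.6 CPM. Nexn was the exception, at 0.495 to 0.828 times its median in the 4 libraries.

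Other brain regions were checked by their own lists. Habenula genes summed to 0.932, 0.807, 1.29 and 0.652 times their median in female replicate 34, male replicate 35, female replicate 1 and female replicate 29, with 1 of 7 genes above 4 times its median in female replicate 34 (Pou4f1, 4.82 times) and 1 in female replicate 1 (Chrna3, 4.7 times). Genes of the subthalamic nucleus and midbrain summed to 1.06, 1.64, 1.12 and 1.33 times their median in the same order. Slc18a2, with the highest median of that list (8.78 CPM), was at 1.02 to 1.24 times. In that order, Lmx1a was at 0.904, 6.04, 6.02 and 76.3 times its median of 0.045 CPM. Th was at 0.881, 4.77, 0.34 and 1.07 times. The cortical list split. Its defining transcription factors Tbr1, Neurod2, Fezf2 and Emx1 were below their medians in all 4 libraries, and Neurod6 in 3 of them (1.07 times in female replicate 1). Slc17a7 (VGLUT1), Rorb and Nrn1, which relay nuclei of the thalamus also express, stood at 332.6, 326.8 and 118.1 CPM in female replicate 34, against medians of 31.2, 63.6 and 4.63 CPM. The hippocampal list summed to 4.84, 3.62, 2.84 and 2.25 times its median in female replicate 34, male replicate 35, female replicate 1 and female replicate 29, the third to sixth highest sums of all libraries. Prox1, which is also known from thalamic nuclei, was at 6.02, 4.35, 3.87 and 1.94 times its median there. Of the same list, Iyd was at 59.7, 55.1, 10.5 and 5.53 times its median and Dsp at 19.4, 10.95, 1.02 and 16.7 times, while Fibcd1 was at 0.0461, 0.6995, 0.267 and 1.0 times. The hypothalamic list summed to 15.2, 3.87, 6.29 and 1.01 times its median of 1.83 CPM, the first 3 being the highest sums of all libraries. Trh, the gene of thyrotropin-releasing hormone, stood at 25.9, 4.76, 7.6 and 0.995 CPM, against a median of 0.825 CPM. Avp, the gene of vasopressin, was at 24.1, 28.7, 30.9 and 2.68 times its median but at most 1.17 CPM, and Pmch was at 9.04 times in female replicate 1. The part of RNA from these regions in the levels of the 8 genes was not tested.

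Choroid plexus, the epithelium within the ventricles that secretes cerebrospinal fluid, was read as well. Its genes were high in female replicate 29 (10 of 11, Ttr at 4241 CPM against a median of 8.14 CPM) and partly in male replicate 35 (5 of 11, Ttr at 236.9 CPM), but in 1 of 11 in each of the other 2. Genes of ependyma, the cell layer that lines the ventricles, summed to 0.323, 0.405, 0.617 and 1.46 times their median in female replicate 34, male replicate 35, female replicate 1 and female replicate 29. Myelin genes summed to 1.75, 1.38, 1.82 and 0.85 times their median, astrocyte genes to 1.5, 1.04, 1.26 and 0.92 times and endothelial genes to 1.08, 1.21, 1.16 and 1.08 times, in the order female replicate 34, male replicate 35, female replicate 1 and female replicate 29. The astrocyte list split. In the same order, Agt was at 15.5, 8.01, 13.7 and 2.5 times its median, and Slc1a3 at 0.6007, 0.6833, 0.7977 and 0.8765 times. The part of these other cells in the levels of the 8 genes was not tested.

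**Figure D3:**
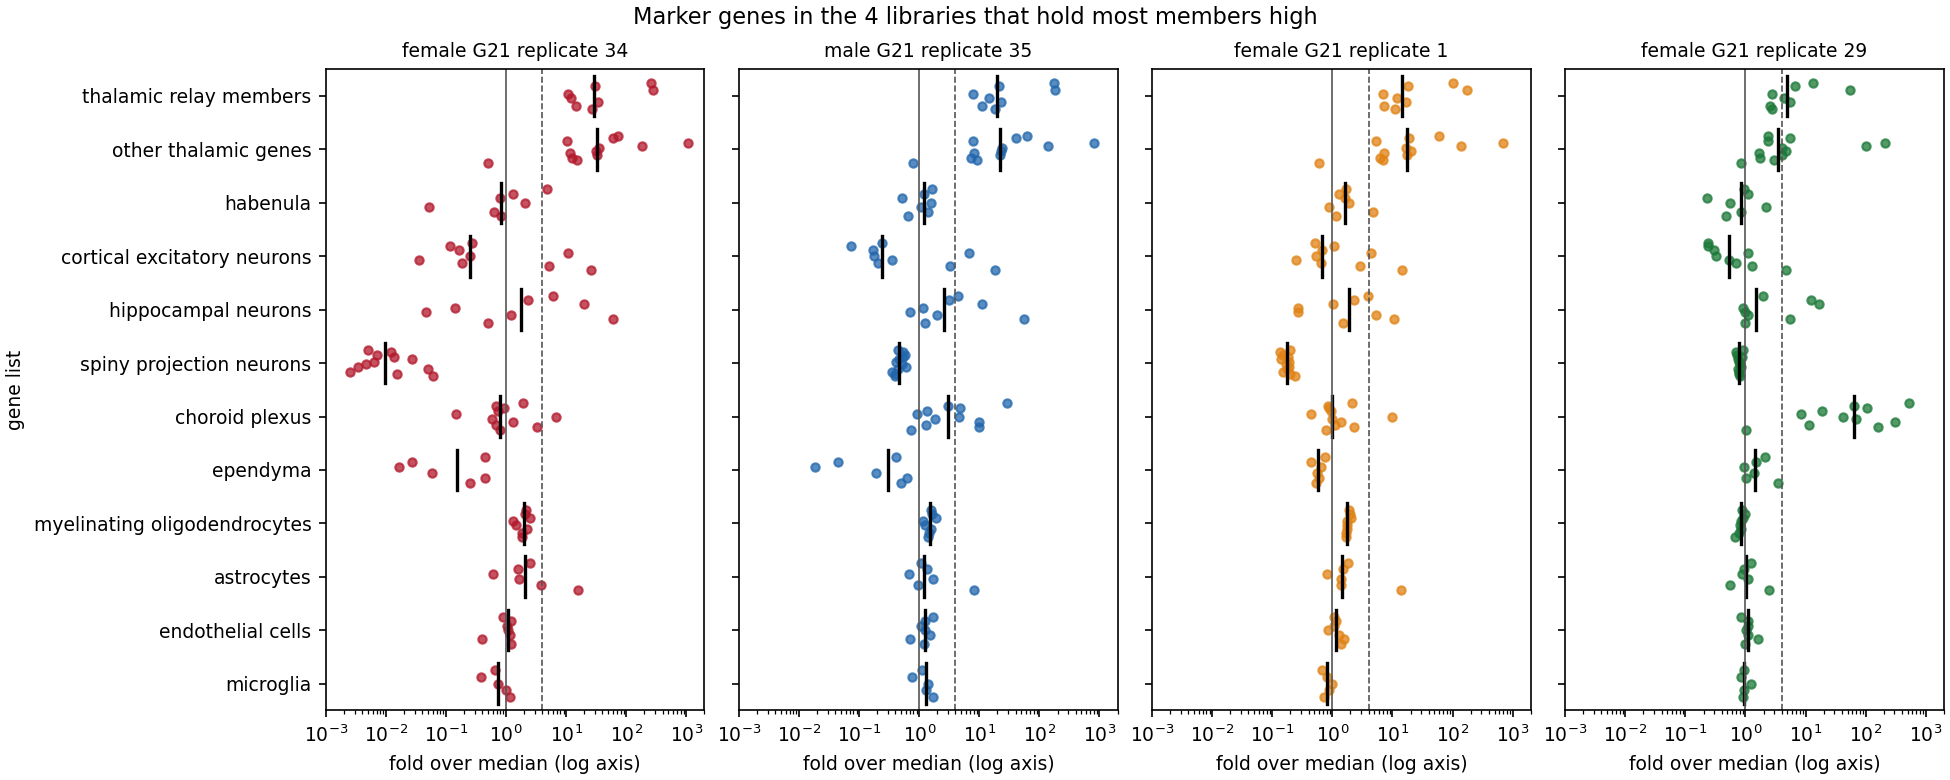
Level of each listed marker gene as a multiple of its median over 416 libraries (log axis), in the 4 libraries with at least 4 of the 8 genes high; points are genes, black bars list medians, and lines mark 1-fold (solid) and 4-fold (dashed). Thalamic genes stand to the right in all 4 panels, while all 12 spiny neuron genes stand left of 1-fold, farthest in female replicate 34.

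The families of 3 of the 8 genes moved unevenly in these libraries. Among the channel genes, Hcn2 stood at 276.1, 195.7, 164.8 and 101.1 CPM in female replicate 34, male replicate 35, female replicate 1 and female replicate 29, against a median of 86.6 CPM. The third vesicular glutamate transporter, Slc17a8, stood at 0.122, 7.86, 1.21 and 10.2 CPM, against a median of 12.1 CPM. Of the TCF and LEF family, Tcf7 was at 0.415, 0.795, 0.405 and 0.926 times its median and Tcf7l1 at 0.878, 0.947, 0.921 and 1.11 times, beside the high Tcf7l2 and Lef1. Ctnnb1, which encodes beta-catenin, stood at 2.07, 1.69, 1.52 and 1.17 times its median. Axin2, a target gene of Wnt signalling, was at 0.942 to 1.02 times its median in the 4 libraries, and Nkd1, another target gene, was at 3.19, 2.24, 1.74 and 1.27 times.

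The remaining 8 libraries with 2 genes high held smaller amounts. Female replicate 39 of generation 23 had 95.8 CPM of Prkcd and 27.4 CPM of Slc17a6, with Tcf7l2 at 29.4 CPM and Rgs16 at 11.9 CPM, 2.79 and 2.92 times their medians. Female replicate 13 of generation 21 had 60 CPM of Prkcd and 18.7 CPM of Slc17a6, with Tcf7l2 at 2.45 times its median. Both libraries had all 8 genes above their medians, by at least 1.73-fold and 1.59-fold. The other 6, female replicates 30, 7, 26, 46 and 66 of generation 21 and female replicate 15 of generation 23, had 20.7 to 32.6 CPM of Prkcd and 7.9 to 20.1 CPM of Slc17a6. In female replicates 30 and 26 of generation 21, Lef1, Gbx2 and Synpo2 were below their medians, and Lef1 was lower in female replicate 30 than in any other library.

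High libraries were not spread evenly over the labels. Libraries with at least 2 genes high numbered 10 in generation 21, 0 in generation 22 and 2 in generation 23, and 11 were labelled female against 1 labelled male, of equal numbers of each. All 14 libraries with a gene other than Slc17a6 high came from generations 21 (12 libraries) and 23 (2). Slc17a6 was high in 20 libraries (13.3%) of generation 21, 12 (10.1%) of generation 22 and 35 (23.8%) of generation 23. As the genes were chosen for such libraries, these counts have no test.

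Slc17a6 differed from the other 7 genes in its pattern. Of its 67 high libraries, 61 had a cortical marker score (mean log2 CPM of the 9 cortical genes) above the median of all libraries. Over the libraries other than the 4 with most genes high, its log2 CPM ran with the cortical list (Pearson's r = 0.74), with the other thalamic list (r = 0.67) and with the habenula list (r = 0.53), and against the spiny neuron list (r = -0.64). Over all 416 libraries the value with the cortical list was r = 0.67 (Spearman's rho = 0.72). Hcn4 ran the other way, with r = -0.38 against the cortical list and r = 0.32 with the spiny neuron list without those 4. Synpo2 and Gbx2 had r = 0.40 and r = 0.38 with the spiny neuron list there, Tcf7l2 r = 0.42 with astrocyte genes, and Lef1 r = 0.46 with choroid plexus genes. The points share libraries and scaling, so these values are descriptions, and the part of other cells in them was not tested.

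Co-variation of the 8 genes rested largely on the few high libraries. Over all 416 libraries the 28 pairs had a median Pearson's r of 0.46, from 0.0039 (Slc17a6 and Gbx2) to 0.83 (Prkcd and Tcf7l2), with 23 pairs above 0.3. Without the 4 libraries the median was 0.12 and 5 pairs were above 0.3. In the libraries with none of the genes high the median was 0.041, 2 pairs were above 0.3 and 12 were below 0. Leaving out the 2 libraries farthest from the median of the first gene of a pair gave a median of 0.29, and Spearman's rho over all libraries a median of 0.12. The highest pairs in the libraries with none high were Prkcd with Tcf7l2 (r = 0.42), Prkcd with Slc17a6 (r = 0.32), Prkcd with Lef1 (r = 0.29) and Gbx2 with Hcn4 (r = 0.26). Slc17a6 and Hcn4 had r = 0.16 over all libraries and r = -0.22 in these.

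**Figure D4:**
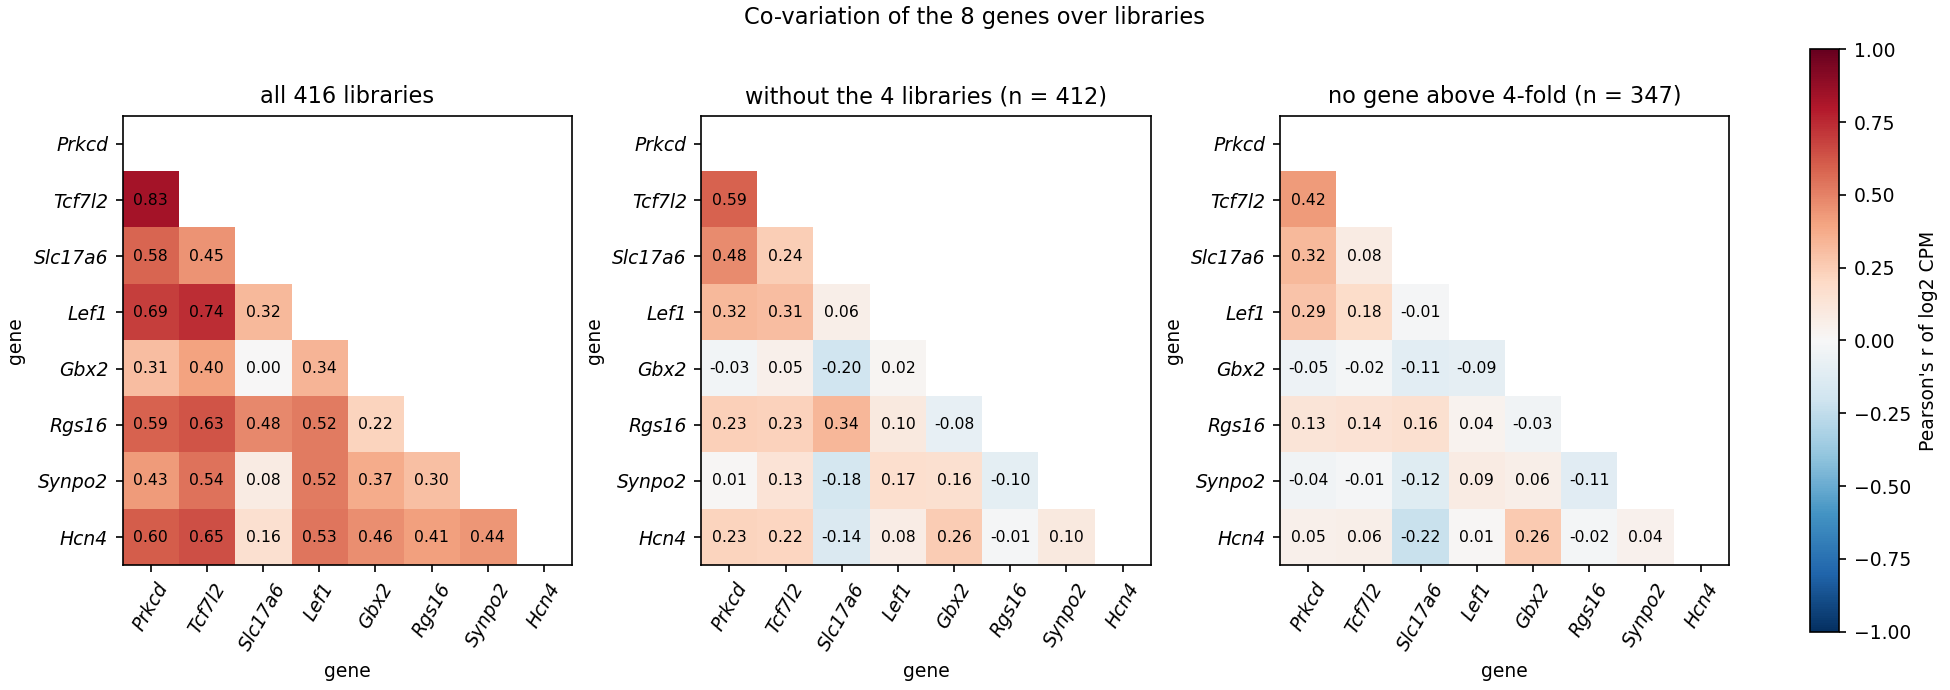
Pearson's r of log2 CPM for the 28 pairs of genes, over all 416 libraries (left), without the 4 libraries with at least 4 genes high (middle) and in the libraries with none of the genes above 4-fold (right). The median r is 0.46, 0.12 and 0.041 from left to right.

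Each gene was compared with the mean of the other 7. Prkcd and Tcf7l2 followed it most closely over 416 libraries (r = 0.83 each), and these 2 had r = 0.59 and r = 0.48 without the 4 libraries. Lef1 (0.68 and 0.22), Rgs16 (0.64 and 0.30) and Slc17a6 (0.41 and 0.17) held less. For Gbx2 and Synpo2 the relation turned to r = -0.085 and r = -0.048 without the 4 libraries, and for Hcn4 it was r = 0.072.

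Among 16911 genes, those most like the mean of the 8 genes over 416 libraries were Adarb1 (r = 0.85), Ramp3 (r = 0.81) and Grid2ip (r = 0.80). Adarb1 encodes an RNA-editing adenosine deaminase, Ramp3 a partner of the calcitonin receptor family, and Grid2ip a scaffold protein that binds the delta glutamate receptor. The next were Slc6a11, a GABA transporter, then Shisal1, Plekhg1, Sema4g, Ccdc136, Gm43398, Kcnc1, Clmn, Xylt2, Rora, Ctif and Ptpn4, down to r = 0.73. Without the 4 libraries these values lay at 0.22 (Rora) to 0.60 (Shisal1). Adarb1, Ramp3, Plekhg1 and Rora also stand in the second thalamic list, which was chosen with earlier results of these data known.

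The nearest single genes of each of the 8 were picked over all 416 libraries, and their r was then read again without the 4. Nearest genes in the remaining libraries alone were not searched for, so a low second value does not show a lack of partners there. Slc17a6 was nearest to Cacna1g (r = 0.85), the potassium channel gene Kcnc2 (r = 0.84) and the adhesion receptor gene Adgra1 (r = 0.84), and these had r = 0.82, 0.82 and 0.81 without the 4 libraries. Tcf7l2 was nearest to Plekhg1 (r = 0.84, and 0.54 without the 4), and Prkcd to Clmn (r = 0.76 and 0.51). Lef1 was nearest to the zinc finger gene Zic1 (r = 0.74 and 0.45), Rgs16 to Adarb1 (r = 0.66 and 0.31), Hcn4 to the potassium channel gene Kcnj12 (r = 0.65 and 0.42) and Gbx2 to Zfhx3 (r = 0.49 and 0.34). Synpo2 was nearest to the gene models Gm43288 (r = 0.90 and 0.89) and Gm43283 (r = 0.85 and 0.84), which lie within Synpo2 on the same strand, so that counts of the 3 cannot be told apart with certainty. Tcf7l2 and Lef1 also overlap a gene model on the same strand each.

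Libraries labelled female and male were compared with edgeR's quasi-likelihood test over all 22968 genes, with generation as a second term, in which 2.86% of genes passed an adjusted p (Benjamini-Hochberg) under 0.05. The 8 genes were picked for a few high libraries, and of the 4 with most genes high 3 are labelled female. A higher level in female-labelled libraries therefore follows in part from that choice. The p-values by sex, here and in the next paragraphs, are no independent test. Synpo2 was the 1 gene of the 8 that passed. Female-labelled libraries averaged 32.99 ± 29.98 CPM of it (SD, n = 76, 60 and 72 in generations 21, 22 and 23) and male-labelled ones 27.97 ± 20.9 CPM (n = 74, 59 and 75). The medians were 30.8 CPM in female-labelled and 25.96 CPM in male-labelled libraries. The ranges overlapped, from 12.8 to 405.7 CPM in female-labelled and from 10.7 to 306.7 CPM in male-labelled libraries. The log2 fold change was 0.24 ± 0.059 SE (adjusted p = 0.00843). Without female replicate 34 of generation 21 it was 0.16 (adjusted p = 0.0592), and without all 4 high libraries 0.18 ± 0.04 (adjusted p = 0.00175, with 3.3% of all genes called). Within generations the log2 fold change was 0.23, 0.18 and 0.30 in generations 21, 22 and 23, and within a single generation it passed in generation 23 (adjusted p = 0.00244). Over all alternative fits its adjusted p ran from 8.49e-06 to 0.519.

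For 5 of the other 7 genes the call by sex depended on whether male replicate 35 of generation 21 was in the fit. Prkcd averaged 16.2 ± 100.4 CPM (SD) in female-labelled and 10.3 ± 63.2 CPM in male-labelled libraries, with medians of 5.2 CPM and 5.14 CPM in the same order. Its log2 fold change of 0.44 ± 0.16 did not pass (adjusted p = 0.0985). It became 0.0026 without female replicate 34 (adjusted p = 0.996) and 1.002 without male replicate 35 (adjusted p = 9.99e-09), the limits of its adjusted p over the alternative fits. Without male replicate 35, 3.98% of all genes were called. Tcf7l2, Slc17a6, Lef1, Rgs16 and Synpo2 passed there as well as Prkcd, 6 of the 8 in all. That fit drops the only male library of the 4 and keeps the 3 female ones. Slc17a6 had a log2 fold change of 0.54 ± 0.2 with all libraries (adjusted p = 0.121), with medians of 1.05 CPM in female-labelled and 1.03 CPM in male-labelled libraries.

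The sex by generation interaction was tested on 2 degrees of freedom, where 0.322% of genes were called. None of the 8 genes passed in edgeR, with 4 at an unadjusted p under 0.05: Slc17a6 (0.0038), Tcf7l2 (0.0179), Hcn4 (0.0413) and Prkcd (0.0493). limma-trend also called none. In edgeR, 4 passed when male replicate 35 of generation 21 was left out, where 0.919% of all genes were called. That fit keeps the 3 female libraries of the 4 high ones. With all 4 left out none of the 8 passed in edgeR, and 0.292% of all genes were called. The lowest adjusted p of the 8 was then 0.4975, for Slc17a6.

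Generation 23 was compared with generation 21 in the same fit, in which 58.3% of all genes were called and 32.6% were called lower. All 8 genes fell, with a median log2 fold change of -0.55, against -0.017 over all genes. The genes were chosen because a few libraries held them high, and the 4 with most genes high are all of generation 21. A fall against generation 21 therefore follows in part from that choice, and its p-values are no independent test. Prkcd averaged 6.13 ± 7.69 CPM (SD, n = 72 female and 75 male) in generation 23 and 26.2 ± 138.8 CPM (SD, n = 76 female and 74 male) in generation 21, a log2 fold change of -2.06 ± 0.19 (adjusted p = 2.47e-23). The medians, however, lay at 5.18 CPM in generation 23 and 5.37 CPM in generation 21, and the SD in generation 21 exceeded its mean. The other log2 fold changes were -1.18 for Slc17a6, -0.76 for Hcn4, -0.60 for Tcf7l2, -0.50 for Rgs16, -0.41 for Gbx2, -0.38 for Synpo2 and -0.22 for Lef1.

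Without the 4 libraries, all of generation 21, 58.9% of all genes and 5 of the 8 were called. Prkcd kept a log2 fold change of -0.24 ± 0.087 (adjusted p = 0.0108) and Tcf7l2 of -0.077 ± 0.031 (adjusted p = 0.0232). Synpo2 kept -0.12 ± 0.048 (adjusted p = 0.0191) and Hcn4 -0.37 ± 0.044 (adjusted p = 8.93e-15). Lef1 (-0.018, adjusted p = 0.607), Gbx2 (-0.088, adjusted p = 0.33) and Rgs16 (0.041, adjusted p = 0.552) no longer passed. Slc17a6 turned round and was higher in generation 23 by 0.53 ± 0.18 on the log2 scale (adjusted p = 0.00739), the direction of its medians, 1.91 CPM in generation 23 and 0.812 CPM in generation 21. Its log2 fold change was also positive without the 29 low libraries (0.72) and in limma-trend (0.62), but -0.094 in DESeq2, which replaced 2 outlying counts of Slc17a6 (adjusted p = 0.712), and -2.66 with the cortical marker score as a covariate (adjusted p = 6.82e-21). Prkcd did not pass without the 29 low libraries (-0.15, adjusted p = 0.137). The 4 libraries were left out by the levels of the genes themselves, so the comparison without them describes the rest and is not an independent one.

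Generation 22 against generation 21 uses the same generation 21 libraries, so the 2 comparisons are not independent. The choice of the genes bears on a fall against generation 21 here too, so its p-values are no independent test either. Here 46.6% of all genes were called, 24.5% lower, and again all 8 fell, from -2.16 ± 0.2 for Prkcd (adjusted p = 1.91e-21) to -0.22 ± 0.074 for Synpo2 (adjusted p = 0.00902). Without the 4 libraries, where 46.1% of genes were called, 4 of the 8 passed: Prkcd (-0.36 ± 0.092), Hcn4 (-0.24 ± 0.046), Rgs16 (-0.15 ± 0.062) and Tcf7l2 (-0.099 ± 0.033). Slc17a6 then had -0.10 ± 0.2 (adjusted p = 0.707). Hcn4 medians were 2.51, 2.15 and 1.97 CPM in generations 21, 22 and 23. It passed both comparisons with generation 21 under all 16 alternative fits, at log2 fold changes of -0.95 to -0.34 for generation 23 and -0.79 to -0.18 for generation 22.

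Generation 23 against generation 22 involves none of the 4 libraries as members of a group, and 18.2% of all genes were called, 8.53% higher and 9.63% lower. None of the 8 passed in edgeR with all 416 libraries in the fit, where the 4 libraries still enter the estimate of the spread. At an unadjusted p under 0.05, 2 genes passed, Slc17a6 and Synpo2, and limma-trend and DESeq2 called 1 gene each. Without the 4 libraries, where 19.8% of genes were called, 4 passed: Slc17a6 (0.63 ± 0.19, adjusted p = 0.011) and Rgs16 (0.19 ± 0.062, adjusted p = 0.0176) were higher in generation 23, and Synpo2 (-0.16 ± 0.05, adjusted p = 0.0134) and Hcn4 (-0.13 ± 0.048, adjusted p = 0.0301) were lower. With the cortical marker score as a covariate, all libraries included, the Slc17a6 difference was 0.047 ± 0.27 (adjusted p = 0.943), and with total count and mitochondrial share as covariates 1.05 (adjusted p = 0.000777), the limits over the alternative fits.

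**Figure D5:**
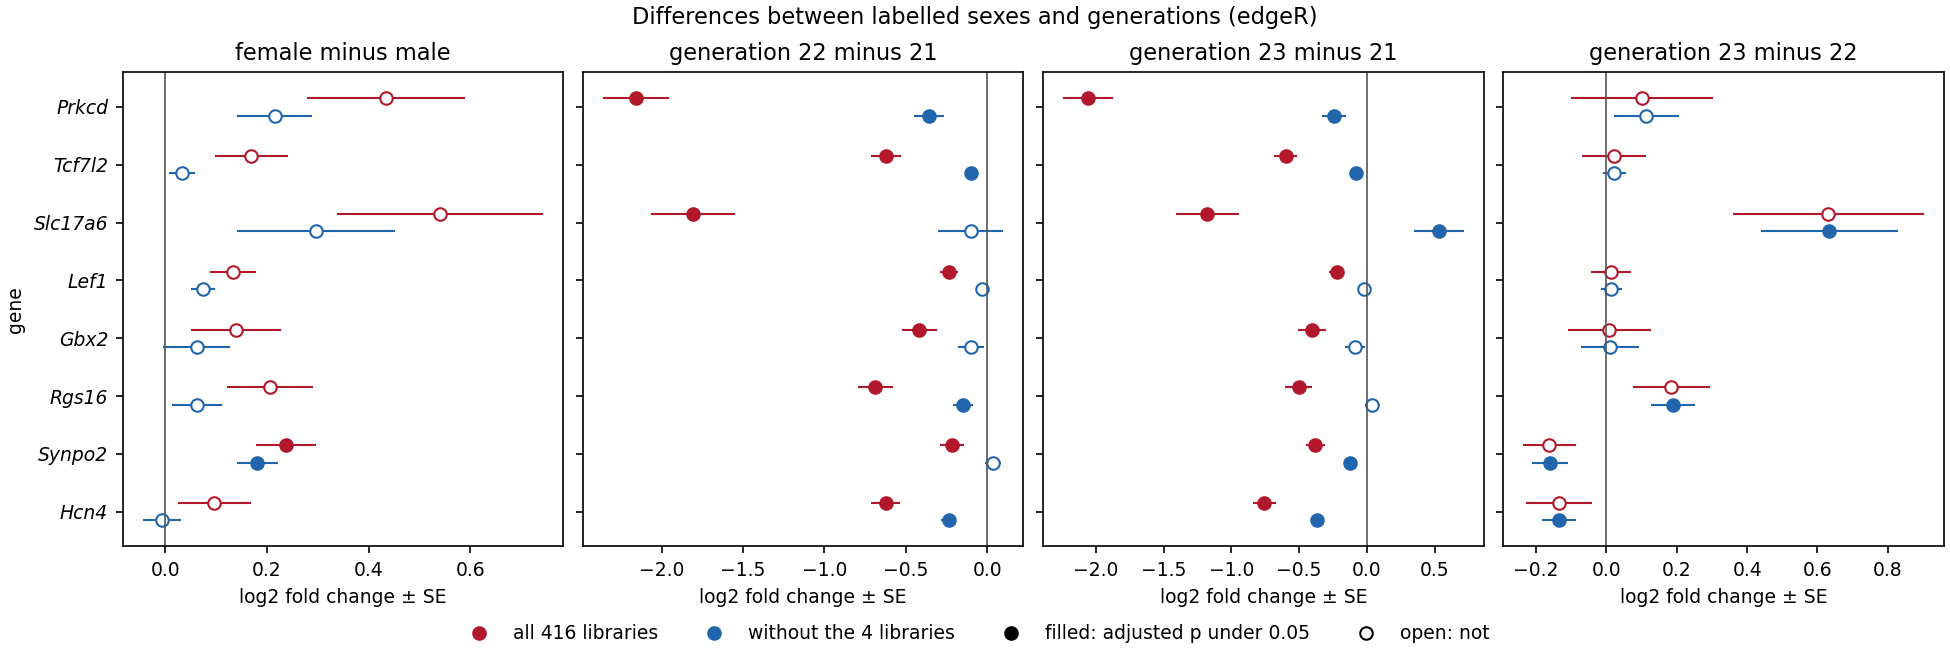
Log2 fold change with its standard error (edgeR) for each of the 8 genes between labelled sexes and between generations, with all 416 libraries (red) and without the 4 libraries with at least 4 genes high (blue); filled points passed an adjusted p under 0.05. For generation 23 minus 21, Slc17a6 lies at -1.18 with all libraries and at 0.53 without the 4, and Hcn4 lies at -0.76 and -0.37.

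The related lists were read in the same comparisons. Of the other 12 thalamic genes, 8 fell and 0 rose in generation 23 against generation 21, where 32.6% of all genes were called lower and 25.8% higher. They included Shox2 (-2.94 ± 0.3), Lhx9 (-1.83 ± 0.31), Tnnt1 (-0.98 ± 0.15), the gene of slow skeletal troponin T, and Ramp3 (-0.75 ± 0.12). Without the 4 libraries 1 fell and 3 rose. This list was chosen with earlier results of these data known, and its sums were highest in the 4 libraries, all of generation 21. Its fall against generation 21 therefore follows in part from that choice, and the count carries no test. Of the TCF and LEF list, 6 of 8 fell with all libraries and 5 without the 4. The 6 include Tcf7l2 and Lef1, which are counted among the 8 genes already, and the other 4 were Ctnnb1, Nkd1, Sp5 and Axin2 (-0.14 ± 0.017, adjusted p = 1.14e-14). Of the HCN channel genes, Hcn2 (-0.16 ± 0.024) fell beside Hcn4. Cortical genes rose in 9 of 9 cases, with and without the 4. Spiny neuron genes fell in 7 of 12 cases with all libraries and in 10 without the 4. The mean cortical marker score was 1.85 ± 1.3, 2.32 ± 1.53 and 3.35 ± 1.37 (log2 CPM, SD) in generations 21, 22 and 23. The part of cortical or other tissue in the differences of the 8 genes was not tested.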

How the data were processed

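Bulk RNA of striatum was measured in 416 libraries. Per the labels' protocols, the striatum was dissected under a microscope from hemisected brains kept in RNAlater, and ribosomal RNA was depleted before stranded, paired-end sequencing. The authors deposited estimated counts per gene: 23.8% of the values were not whole, and they were rounded, which moved 0.005% of the total. The aligner, counter, genome build and annotation are not given in the sources used here. Symbols came from an annotation table that matched 46005 of 46517 IDs (98.9%).

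CPM used TMM factors, and log2 CPM a prior count of 2. edgeR 4.0.16 (quasi-likelihood, R 4.3.3) fitted sex and generation to all libraries on 22968 genes that passed its filter (minimum count 10 over the 6 groups of sex and generation), with Benjamini-Hochberg adjustment over these genes, and was tested on simulated data. limma 3.58.1, DESeq2 1.42.0, other filters, covariates and left-out libraries were alternatives. Low libraries had under 0.5 times the median total or a median correlation over 4 scaled median absolute deviations below typical. All 8 genes are named in each comparison, beside the 15 genes nearest to their mean, the 3 nearest to each, and listed marker genes; a few of these are not reported here. The members and lists were chosen with earlier results of these data known. Sequencing batch is not in the labels, so it cannot be told apart from generation.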

Additional observations from a re-analysis of the deposited data

How the results depend on the processing

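Of the effects of single genes, 441 kept their direction and side of the threshold under the alternatives, 32 lost it, 20 gained it and 23 turned round. The count of the 8 genes called by sex, 1 with all libraries, was 3 without libraries of low total or correlation, 2 without libraries whose Xist goes against the label, 2 with DESeq2, and 0 in generation 21 alone and in generation 22 alone. For generation 22 minus 21 it was 8, and 3 without low libraries, 4 without the 4 high libraries and 4 with limma-trend. For generation 23 minus 21 it was 8, and 3, 5 and 5 under those settings. For generation 23 minus 22 it was 0, and 4 without low libraries, 4 without the 4 high ones, and 1 each with total count and mitochondrial share as covariates, limma-trend and DESeq2. Leaving out 1 of the 4 libraries at a time gave 0 to 6 for sex and 0 to 4 for the interaction. Libraries with a gene high numbered 69, but 140 at 2 times and 23 at 8 times the median, and those with at least 4 genes high 7 at 2 times. The median r of pairs, 0.4554, was 0.1188 as Spearman's rho, 0.04091 in libraries with no gene high, 0.1277 without low libraries and 0.1168 without the 4. Effects that turned round were as follows. By sex, Hcn4 was at -0.03851 without low libraries, -0.00726 without the 4, -0.03661 without female replicate 34 (0.1995 without male replicate 35), -0.07538 in generation 23 alone and -0.04583 with DESeq2. In generation 22 alone, Prkcd (-0.1026), Tcf7l2 (-0.03023), Slc17a6 (-0.2155), Rgs16 (-0.02014) and Hcn4 (-0.03048) did so. For generation 22 minus 21, Synpo2 was at 0.04486 without low libraries and 0.03632 without the 4. For generation 23 minus 21, without low libraries, Slc17a6 was at 0.7177, Lef1 at 0.003888 and Rgs16 at 0.04157; without the 4, Slc17a6 was at 0.5326 and Rgs16 at 0.0414; with limma-trend, Slc17a6 was at 0.6245. For generation 23 minus 22, males alone gave Prkcd -0.1219, Tcf7l2 -0.01719 and Gbx2 -0.04782, and Prkcd was at -0.01237 with the cortical score and -0.02875 with DESeq2. The cause was not tested. Over all genes, 2.86% were called by sex, but 5.74% without low libraries, 4.83% without Xist-discordant ones and 0.414%, 0.318% and 0.583% in generations 21, 22 and 23 alone. Those for generation 22 minus 21 came to 46.6%, and to 28.4% in males alone. Those for generation 23 minus 22 came to 18.2%, and to 3.97% in females alone, 4.63% in males alone and 6.41% with the cortical score. Those for the interaction came to 0.322%, and to 0.286% of 39485 genes without a filter, 0.175% of 17114 genes at a mean CPM of at least 1, 0.0871% without low libraries, 0.919% without male replicate 35, 0.179% without Xist-discordant libraries and 0.0174% with limma-trend. The cortical score, and leaving out female replicates 1 and 29, were chosen after seeing the data. DESeq2 replaced outlying counts of Prkcd (4), Tcf7l2 (3), Slc17a6 (2), Rgs16 (2) and Hcn4 (1); its interaction test, and the interaction with covariates, were not run. No paired analysis was possible because the labels give the groups no shared replicate numbers. Depth limits Gbx2 most, at a median of 12 counts.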
